A study of Mus musculus with 16 samples.

Results

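Productive T cell receptor β (TCRβ) rearrangements in which the third complementarity-determining region (CDR3) had 51 nucleotides or more, that is 17 residues or more, were examined in the T cells of KPC.Luc tumors grown under the skin. They were chosen by length alone, from rearrangements that were in frame and without a stop codon, and numbered 5047 of 126344 productive rearrangements in 16 mice (3.99%). These long rearrangements held 17169 of 526888 productive templates (3.26%), where a template is a starting molecule as counted by the sequencing service. They were compared with 115321 productive rearrangements of 36 to 48 nucleotides, called middle-length here, and a rearrangement found in more than 1 mouse was counted once for each. KPC.Luc is a mouse line of pancreatic ductal adenocarcinoma (PDAC) that carries luciferase, and all mice were female C57BL/6. Control mice received a scrambled peptide and isotype IgG. The ANT008 group received ANT008, a peptide that blocks receptors for vasoactive intestinal peptide (VIP-R), with IgG, the anti-PD-1 group received the scrambled peptide with anti-PD-1, and the combination group received both active agents. Peptides were given at 10 µg every day and antibodies at 200 µg every 3 days, for 10 days, with 4 mice in each of 4 groups. T cells were enriched by CD90.2 selection and not purified to a subset, so CD4+ and CD8+ cells cannot be told apart, and the data hold no expression of marker genes by which to check the cell type. Productive templates ranged from 7180 to 72588 per mouse and unique productive rearrangements from 2526 to 13939. The study names RNA in its labels and methods and DNA in its results, so a template may be a transcript or a cell, and more cells of a clone and more RNA per cell cannot be told apart.

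The β chain is assembled in the thymus by joining a V, a D and a J gene segment. Nucleotides are trimmed from the segment ends, and others that no gene encodes are added at both joints by terminal transferase, so the CDR3 at the joint differs in sequence and in length between clones. The CDR3 loop lies over the peptide when the receptor meets its ligand, and rearrangements that are out of frame are carried by T cells whose other allele gave the working receptor.

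The long rearrangements that recurred between mice, those with the most templates and the longest ones are shown first, as deposited, from the conserved cysteine codon to the end of the sequenced stretch, which stops 1 codon before the phenylalanine that closes the CDR3. Letters in capitals are inserted nucleotides and letters in lower case are assigned to the V, D or J gene. The first set joined Trbv2 to Trbj2-3 and is shown because it includes the largest long clone. They encode 3 CDR3s of 17 residues, named A, B and C here, that differ only at positions 8 to 11. These positions hold alanine, glycine, glycine and phenylalanine in A, tyrosine in place of phenylalanine in B, and glycine, glycine, alanine and phenylalanine in C.
CDR3 A, form a: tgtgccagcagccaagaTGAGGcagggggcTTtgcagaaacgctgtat
CDR3 A, form b: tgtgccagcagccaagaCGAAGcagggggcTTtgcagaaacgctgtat
CDR3 A, form c: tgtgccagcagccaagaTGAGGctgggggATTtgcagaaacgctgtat
CDR3 A, form d: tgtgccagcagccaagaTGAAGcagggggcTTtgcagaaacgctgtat
CDR3 B, form a: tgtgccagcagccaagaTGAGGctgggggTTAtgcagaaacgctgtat
CDR3 B, form b: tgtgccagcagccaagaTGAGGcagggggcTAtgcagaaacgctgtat
CDR3 C, form a: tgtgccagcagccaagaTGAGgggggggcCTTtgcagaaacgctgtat
CDR3 C, form b: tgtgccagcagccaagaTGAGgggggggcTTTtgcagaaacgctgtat

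The second set joined Trbv19, or Trbv12-1, to Trbj2-4 through Trbd2 and is shown because these CDR3s were among the 6 found in the most mice, mostly as single templates. They are named D, E and F, and the nucleotides shown for F were also assigned to Trbv12-2 in combination replicate 1.
CDR3 D, Trbv19: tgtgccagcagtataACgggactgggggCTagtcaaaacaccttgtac
CDR3 E, Trbv19: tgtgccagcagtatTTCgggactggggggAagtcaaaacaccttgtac
CDR3 F, Trbv12-1: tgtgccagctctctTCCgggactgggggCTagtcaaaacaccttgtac

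The third set holds the longest 3 productive CDR3s, of 81, 78 and 78 nucleotides, in each of which the last 15 bases occur a second time further in.
81 nucleotides, Trbj1-3, ANT008 replicate 2: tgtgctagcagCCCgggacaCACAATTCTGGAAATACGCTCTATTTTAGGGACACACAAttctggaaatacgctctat
78 nucleotides, Trbv3 and Trbj2-7, control replicate 3: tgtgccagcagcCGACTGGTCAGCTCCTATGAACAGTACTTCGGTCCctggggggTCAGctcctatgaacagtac
78 nucleotides, Trbv13-2 and Trbj1-3, combination replicate 3: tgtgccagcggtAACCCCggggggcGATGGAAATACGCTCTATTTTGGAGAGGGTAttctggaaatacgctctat

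Long CDR3s were a thin and quickly falling tail of the length distribution. Rearrangements of 51 nucleotides numbered 3948 (78.2% of the long ones), and 883 had 54 nucleotides, 155 had 57, 43 had 60 and 18 had 63 or more. In unique rearrangements the mean share of a mouse was 3.06% ± 0.305 at 51 nucleotides (SD, n = 16) and 0.664% ± 0.173 at 54 nucleotides. Just outside the limit, rearrangements of 48 nucleotides carried 5.09 inserted nucleotides on average and those of 51 carried 6.44, and the share with more than 1 template was 18.1% and 15.9%, so the limit cuts through a gradual change. Of the 5047 long CDR3s, all end in phenylalanine and 26 do not start with cysteine.

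Long CDR3s were more frequent among out-of-frame than among productive rearrangements in every mouse. The out-of-frame share of 50 nucleotides or more was 5.99% ± 0.438 and the productive share of 51 or more was 3.90% ± 0.435 (SD, n = 16), a difference of 2.10 percentage points ± 0.572 that ranged from 1.36 to 3.30 (permutation test over all 65536 sign assignments, two-sided p = 3.05e-05, the smallest these can give; higher in 16 of 16 mice). Out-of-frame lengths lie between the in-frame ones. With the limit set at 52 the direction turned, to a difference of -1.09 percentage points, since this drops lengths next to 51 from the out-of-frame side only. Length by length, with each in-frame length set against the out-of-frame lengths 1 nucleotide below and above it, the productive share was 1.15 times the out-of-frame share at 39 nucleotides. It was 0.788 times at 48, 0.682 times at 51, 0.590 times at 54 and 0.463 times at 57, and at 48, 51, 54 and 57 the productive share was the lower one in all 16 mice. At 60 and 63 nucleotides, with 43 and 10 productive rearrangements, the ratio was 0.618 and 1.10 and the productive share was the lower one in 8 mice each. At the short end, at 30 nucleotides, the ratio was 0.591 (lower in 15 mice).

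**Figure D1:**
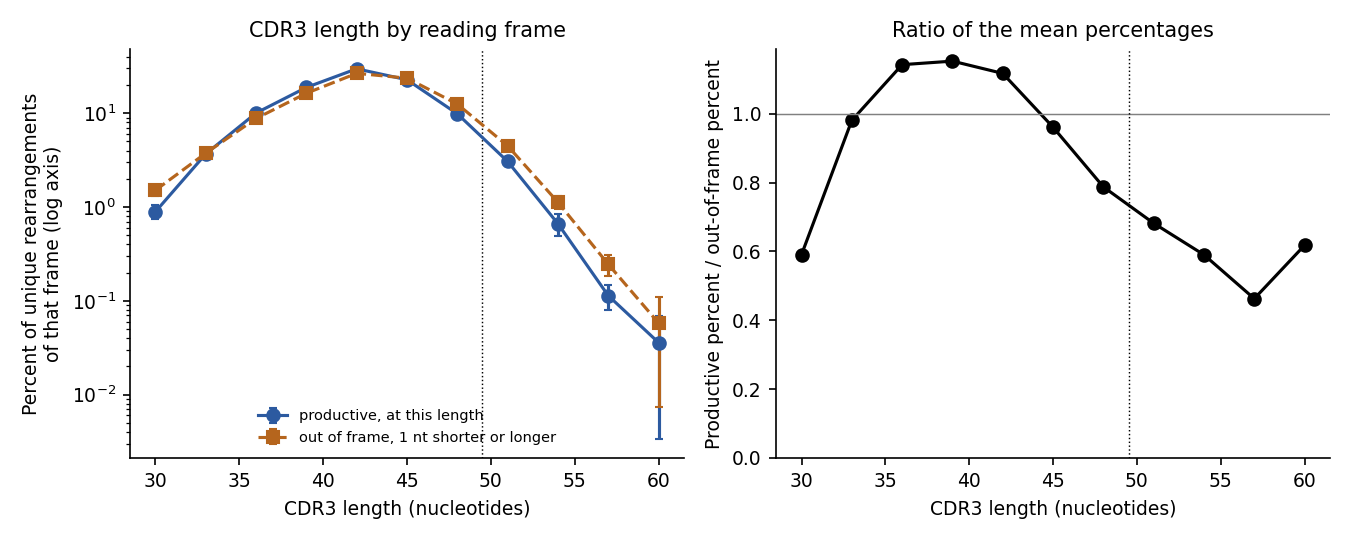
The left panel shows the percent of unique rearrangements (log axis, mean ± SD of 16 mice) against CDR3 length in nucleotides for productive and for out-of-frame rearrangements, and the right panel shows the ratio of the mean percentages. The dotted line marks the limit of the long class, and the ratio falls from 1.15 at 39 nucleotides to 0.682 at 51 and 0.463 at 57.

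Every part of the CDR3 was longer in long rearrangements, and the added length was spread over all of them. These parts sum to the length that chose the rearrangements, so the values are a description. Long CDR3s were 9.73 nucleotides longer than middle-length ones on average, of which the D gene segment gave 2.89 (9.60 against 6.71 nucleotides), the J gene 2.06, the V gene 1.25, V-D insertions 1.78 and D-J insertions 1.75. Insertions in all were 7.04 ± 0.313 nucleotides per long and 3.51 ± 0.0633 per middle-length rearrangement (SD, n = 16), and the D gene segment contributed 29.7% of the added length. Trimming was lighter at all 4 ends, most at the J gene, from which 1.32 nucleotides were lost in long and 2.78 in middle-length rearrangements. The V gene was untrimmed in 44.3% of long and 22.9% of middle-length rearrangements, and the J gene in 50.96% and 26.6%. Rearrangements without any insertion, 8.08% of the middle-length ones, were 2 of 5047 among the long.

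**Figure D2:**
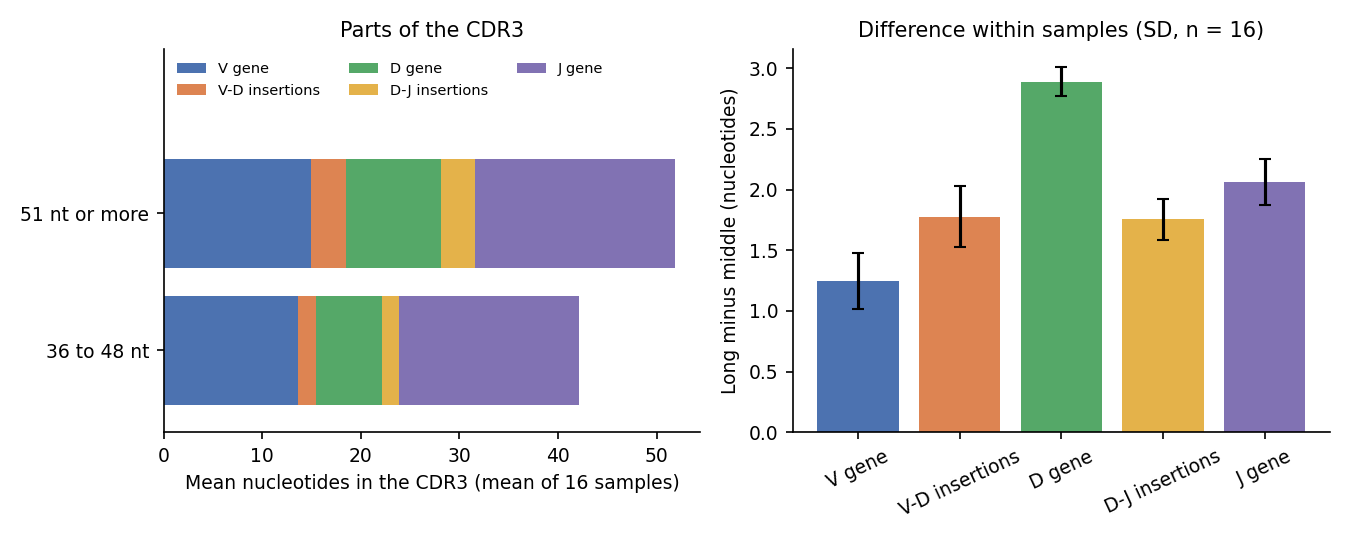
The left panel stacks the mean number of nucleotides from each part of the CDR3 in middle-length and long rearrangements, and the right panel shows the difference (mean ± SD of 16 mice). All 5 parts were longer in long CDR3s, with the D gene segment adding 2.89 nucleotides and the V gene 1.25.

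Trbd2, the longer of the D segments in the mouse, was named in 68.9% of long rearrangements and in 39.5% of middle-length ones, and Trbd1 in 27.0% and 43.2%. The D gene could not be told in 4.06% of long and 16.0% of middle-length rearrangements. Among rearrangements with a resolved D gene and a J gene of the second cluster, 87.3% of the long and 64.2% of the middle-length used Trbd2. Of those with a J gene of the first cluster 5.35% and 10.3% were assigned to Trbd2, which lies beyond that cluster and cannot join it by deletion, so part of the D assignments at short matches are uncertain. Rearrangements with both D segments numbered 5 among the long and 0 of 115321 among the middle-length.

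J gene usage differed between long and middle-length rearrangements, with the second J cluster holding 4 of the 5 genes that were higher. Among 13 J genes tested with edgeR's quasi-likelihood test on unique rearrangements, with the mouse as a block, 10 differed (76.9% of those tested), 5 higher (38.5%) and 5 lower (38.5%) in long rearrangements. With TMM scaling, which moved the J genes by -0.32 on the log2 scale (median), the split was 3 higher and 7 lower. The shares of a class sum to a whole, so a gene can be lower because others are higher. Trbj2-4 made up 16.1% ± 2.91 of long and 7.66% ± 0.445 of middle-length rearrangements (SD, n = 16), 1.09 higher on the log2 scale (SE 0.0643, edgeR adjusted p = 2.73e-26). Trbj2-3 was at 17.8% ± 3.29 and 8.43% ± 0.321 (1.04, SE 0.0604, edgeR adjusted p = 1.31e-26). Trbj2-2 was at 11.1% and 5.59%. All 3 were higher in 16 of 16 mice. Trbj1-6 (4.44% and 3.10%) and Trbj2-1 (17.6% and 13.1%) were higher in 13 and 15 mice, and lost the call with TMM scaling (edgeR adjusted p = 0.0599 and 0.0994).

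The J genes lower in long rearrangements were led by Trbj1-2, Trbj1-1 and Trbj2-7, each lower in 16 of 16 mice. Trbj1-2 made up 0.655% ± 0.519 of long and 5.79% ± 0.543 of middle-length rearrangements, or -2.78 on the log2 scale (SE 0.165, edgeR adjusted p = 3.64e-26). Trbj1-1 was at 1.28% ± 0.503 and 8.60% ± 0.278 (-2.68, SE 0.125). Trbj2-7, the J gene of 20.8% of middle-length rearrangements and the most used of all, made up 6.11% ± 1.90 of the long ones (-1.82, SE 0.0673, edgeR adjusted p = 3.65e-38). Trbj1-5 and Trbj1-3 fell by 0.45 and 0.32 on the log2 scale. An untrimmed J gene supplied 19 CDR3 nucleotides for Trbj2-7, 20 for Trbj1-1 and Trbj1-2, 21 for Trbj2-3 and Trbj2-4, 23 for Trbj2-2 and 25 for Trbj1-6. But Trbj1-3 and Trbj1-5, which were lower, supplied 22, as did Trbj2-1, which was higher. Trbj1-4 supplied 23 and Trbj2-5 supplied 21, and neither was called. Across the 12 J genes with at least 100 productive rearrangements, the long share followed this length with a Spearman rho of 0.466 (Pearson r 0.496), and it followed the long share among out-of-frame rearrangements of the same J gene with a rho of 0.923. The out-of-frame long share was 11.9% for Trbj2-3 and for Trbj2-2, 1.74% for Trbj2-7 and 1.36% for Trbj1-2, and it was above the productive one for all 12. These are descriptions across genes of the same libraries, and length is what chose the rearrangements.

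Among V genes, 21 of 25 tested differed (84% of those tested), 8 higher (32%) and 13 lower (52%) in long rearrangements. Trbv2 made up 11.96% ± 2.17 of long and 4.81% ± 0.359 of middle-length rearrangements (SD, n = 16), 1.29 higher on the log2 scale (SE 0.0800, edgeR adjusted p = 3.95e-43; higher in 16 of 16 mice). Trbv5 was at 11.04% ± 2.07 and 6.76% ± 0.594 (0.76, SE 0.0749; higher in 15 of 16). Trbv24, Trbv16, Trbv1 and Trbv17 rose by 0.94, 0.57, 0.49 and 0.39 on the log2 scale. Trbv10 and Trbv21 had the highest fold changes (2.32, SE 0.467, and 1.33, SE 0.322) but rest on 10 and 24 long rearrangements, and Trbv10 is listed as a pseudogene in the RefSeq annotation of GRCm38.p6. Trbv10, Trbv21 and Trbv24 had fewer productive than out-of-frame rearrangements (54 and 90, 250 and 570, 2032 and 4389). The other V genes called higher had more productive ones, as Trbv2 with 6109 and 3328. Whether Trbv10, Trbv21 and Trbv24 give a working receptor was not tested. Of the productive rearrangements of a V gene, 9.36% ± 1.60 were long for Trbv2 and 0.628% ± 0.613 for Trbv20 (SD over 16 mice).

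Trbv20 was the V gene with the lowest fold change, at 0.474% ± 0.481 of long and 2.90% ± 0.399 of middle-length rearrangements (-2.42, SE 0.230, edgeR adjusted p = 8.68e-22; lower in 16 of 16 mice). Trbv26 fell by 1.13, Trbv31 by 0.79, Trbv4 by 0.77, Trbv15 by 0.69, Trbv14 by 0.65 and Trbv29 by 0.62 on the log2 scale. Trbv30 was also called lower, with 3 long among 312 productive rearrangements, and was not called by DESeq2 (adjusted p = 0.0728). Genes of the Trbv12 and Trbv13 families are near copies of each other and their assignments are uncertain. Trbv20, Trbv30 and Trbv31 supplied 14 CDR3 nucleotides when untrimmed and Trbv2, Trbv5, Trbv24, Trbv16, Trbv1 and Trbv17 supplied 17, but so did Trbv26, Trbv4, Trbv15 and Trbv29, which were lower. Across 24 V genes the long share followed the untrimmed length with a Spearman rho of 0.522 (Pearson r 0.546) and the out-of-frame long share with a rho of 0.838. The out-of-frame long share was 13.7% for Trbv2 and 1.81% for Trbv20, and it was above the productive one for 23 of the 24. Weighted by templates in place of unique rearrangements, 3 V genes and 2 J genes were higher. Trbv1, Trbv16 and Trbj2-1 then turned direction (-0.23, -0.34 and -0.50 on the log2 scale), and the calls of Trbv5, Trbv24, Trbv17, Trbj2-2, Trbj1-6, Trbv29 and Trbv31 were lost (edgeR adjusted p = 0.724, 0.172, 0.154, 0.158, 0.0601, 0.119 and 0.231). With long set at 54 nucleotides or more, the calls of Trbv17, Trbv21, Trbv30, Trbv31, Trbj1-3 and Trbj1-5 were lost (edgeR adjusted p = 0.393, 0.315, 0.771, 0.156, 0.0731 and 0.129).

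**Figure D3:**
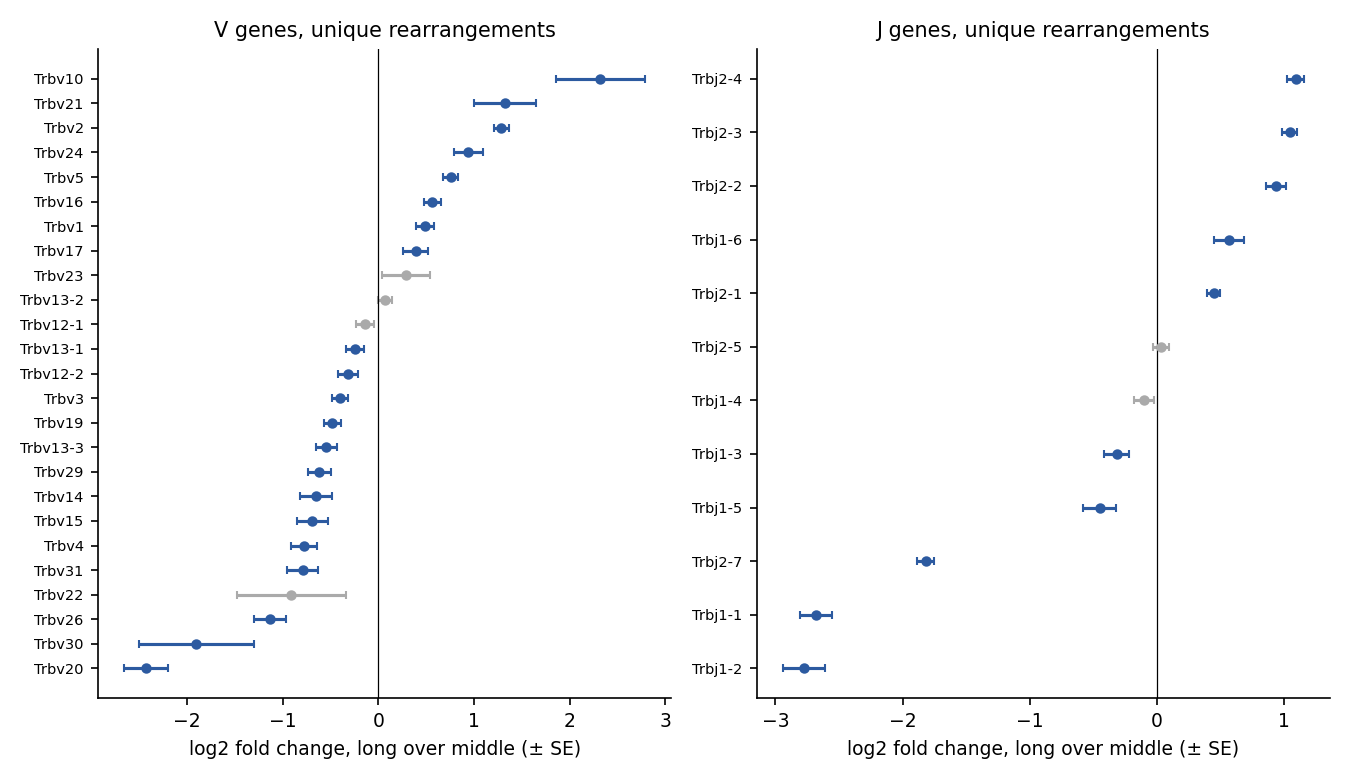
Points show the log2 fold change in share of unique rearrangements, long over middle-length, for each V gene (left) and J gene (right) with at least 1 long rearrangement, with bars of ± 1 SE from the edgeR fit over 16 mice. Blue marks an adjusted p under 0.05 and grey the rest; Trbj1-2, Trbj1-1 and Trbj2-7 stand apart on the low side and Trbv2 on the high side has a short bar.

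The CDR3 from residue 4 to the fourth from the end held more glycine and less glutamate and serine in long CDR3s. Only the outermost residues were left out by this, since V genes gave 14.9 and J genes 20.3 nucleotides of long CDR3s. Residues encoded by V and J genes thus remained, and the part that gene usage has in the differences was not tested. Of 20 residues, 13 differed (65% of those tested), 6 higher (30%) and 7 lower (35%). Glycine, encoded by the D segments, made up 20.7% ± 0.913 of residues in long and 17.6% ± 0.317 in middle-length CDR3s (SD, n = 16; permutation test over all sign assignments, adjusted p = 7.63e-05). Alanine (7.49% and 6.39%), leucine (5.54% and 4.46%), glutamine (6.34% and 5.48%) and tryptophan (3.01% and 2.36%) were higher as well, each in 16 of 16 mice. Glutamate fell by 2.72 percentage points (6.07% and 8.79%), serine fell by 1.82, and arginine, threonine and tyrosine differed by -0.695, -0.662 and -0.554. Weighted by templates, threonine turned to a difference of 1.24, and the calls of leucine, tryptophan, glutamate and tyrosine were lost. With long set at 54 nucleotides or more, arginine differed by -0.119 (permutation test, adjusted p = 0.875) and glutamine by 0.629 (adjusted p = 0.0729).

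Most long rearrangements were small, and fewer of them than of the middle-length ones had more than 1 template. Among long rearrangements 18.1% ± 5.32 had more than 1 template, against 26.4% ± 5.02 of middle-length ones (SD, n = 16), a difference of -8.27 percentage points ± 2.63 that ranged from -13.8 to -3.15 (permutation test over all sign assignments, two-sided p = 3.05e-05, adjusted over 4 tests 6.10e-05; lower in 16 of 16 mice). Rearrangements above 0.1% of productive templates made up 1.20% ± 0.912 of long and 1.73% ± 1.30 of middle-length ones (difference -0.535 ± 0.865, permutation p = 0.00626, adjusted 0.00834; lower in 14 of 16 mice). With long set at 54 nucleotides or more this difference was -0.809 with a permutation p of 0.0550.

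The mean number of templates did not follow this in every mouse. On the log2 scale the mean was 0.55 lower in long rearrangements (SD of the difference 0.881, n = 16, permutation p = 0.0278, adjusted 0.0278; lower in 12 of 16 mice). The exceptions were control replicate 1, ANT008 replicate 1 and combination replicates 2 and 3, with long means of 9.12, 5.51, 8.40 and 9.20 templates against middle-length means of 6.85, 4.80, 3.46 and 4.60. Without control replicate 3, control replicate 4 or anti-PD-1 replicate 3 the permutation p was 0.0504, 0.0540 or 0.0537. With Trbv2-Trbj2-3 rearrangements left out of both classes the difference was -1.03 on the log2 scale and that in the share above 0.1% was -0.960 percentage points. The pair was chosen for its large long clones, so these are descriptions.

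A few large clones held much of the long templates in some mice. The 39 long rearrangements above 0.1% of productive templates held 54.98% of the long templates of all mice, or 45.5% without combination replicate 3. In single mice they held from 0% to 83.2% (median 31.9%), and more than 50% in 5 of 16 mice. Of the 39, 33 had 51 nucleotides, as did 78.2% of all long rearrangements. Among the 10 most frequent productive rearrangements of each mouse, 6 of 160 were long (3.75% ± 6.19, SD over 16 mice), in 5 mice. This is near the 3.99% of all productive rearrangements. Ranks 11 to 100 held 38 long of 1440 (2.64% ± 1.51), and ranks above 1000 held 4581 of 110344 (4.11% ± 0.447, SD over 16 mice). Trbv2 was the V gene of 17 of the 39, in 10 mice, and of 11.4% of all long rearrangements. Trbv16 and Trbv19 were the V gene of 4 each (7.97% and 5.45% of all long ones) and Trbv29 of 3 (3.17%), and 10 other V genes of 1 or 2 each. Above 0.5% of productive templates there were 11 long rearrangements, 8 of them with Trbv2, and 7 of these 8 with Trbj2-3.

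The pair of Trbv2 and Trbj2-3 was looked at more closely after these values were seen. It had 592 productive rearrangements, of which 136 were long (23.0%), the highest long share of the 237 V-J pairs with at least 100 productive rearrangements. The 136 came from all 16 mice and were 131 distinct rearrangements with 112 distinct CDR3s, and 38.2% of them had more than 1 template. They held 7233 templates, or 42.1% of all long templates. Within them, 35 had 17 residues and the same first 7 and last 6 residues as CDR3 A, in 13 mice, with 30 distinct rearrangements and 12 distinct CDR3s, and these held 6810 templates (39.7% of all long templates). Of the 12 CDR3s, 8 had glycine at position 9, 8 had glycine at position 10, and 7 had phenylalanine and 4 tyrosine at position 11. They held 20 distinct CDR3 nucleotide sequences, of which 3 were found in more than 1 mouse.

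The share of productive templates in long Trbv2-Trbj2-3 rearrangements ranged widely within each group. In control replicates 1 to 4 it was 3.87%, 1.86%, 0.0682% and 0.00536%. In ANT008 replicates 1 to 4 it was 2.14%, 0.1002%, 0.728% and 0.101%. In anti-PD-1 replicates 1 to 4 it was 0.245%, 0.481%, 0.00964% and 0.418%, and none of these mice reached 0.5%. In combination replicates 1 to 4 it was 0.0599%, 3.54%, 5.86% and 0.589%. The range of each group overlapped that of every other, and since the pair was chosen on these values no test was made.

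**Figure D4:**
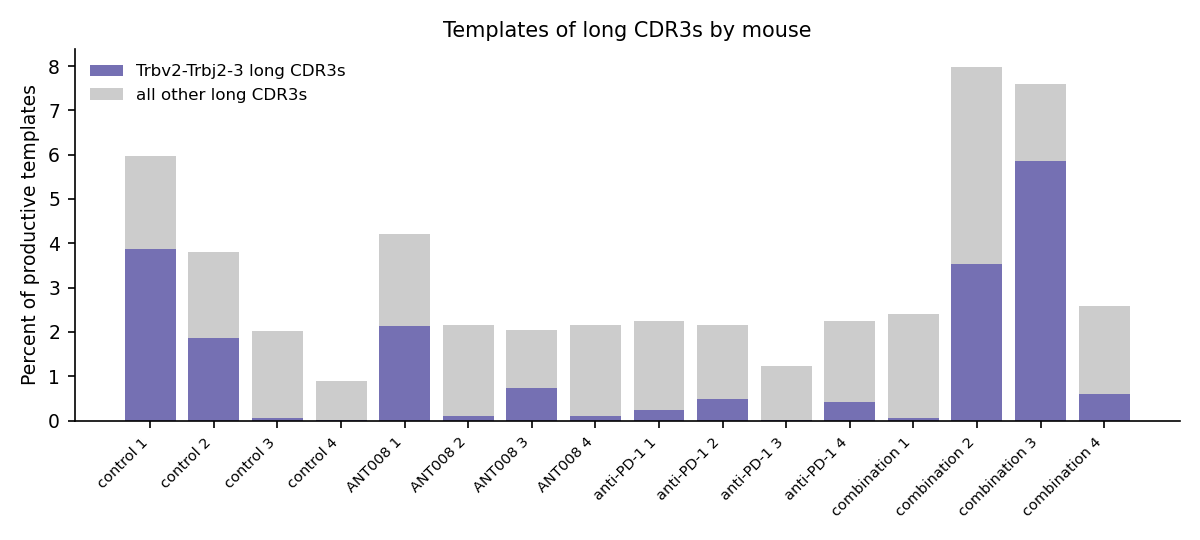
Bars show the percent of productive templates in long CDR3s for each of the 16 mice, split into rearrangements of Trbv2 with Trbj2-3 and all others, with no error since each bar is 1 mouse. The other long CDR3s reach 4.44% in combination replicate 2 and lie between 0.880% and 2.34% in the other 15, while the Trbv2-Trbj2-3 part runs from 0.00536% to 5.86%.

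The largest long clone was CDR3 B in combination replicate 3, with 3406 templates in form a (5.80% of productive templates, rank 3 in that mouse). Form b had 459 templates in control replicate 2 (1.11%) and 70 in ANT008 replicate 3 (0.607%), and was the most frequent long rearrangement of both. CDR3 A was found in 7 mice. Form a had 738 templates in control replicate 1 (2.84%), 481 in ANT008 replicate 1 (2.12%), 2 in ANT008 replicate 2 and 1 in control replicate 4. Form b had 840 templates in combination replicate 2 (3.43%, rank 3 there), form c 256 in control replicate 2 and form d 66 in combination replicate 4. The same residues were thus carried by unlike insertions and by Trbd1 or Trbd2. CDR3 C led the long rearrangements of combination replicate 4 with 120 templates (0.332%) in form a, and form b had 87 in anti-PD-1 replicate 2.

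In the other mice the most frequent long rearrangement had another CDR3, found in that mouse alone. Trbv16 was the V gene in control replicate 3 (with Trbj2-2, 59 templates, 0.155%), control replicate 4 (with Trbj2-4, 74, 0.198%) and ANT008 replicate 4 (with Trbj2-2, 43, 0.207%). In anti-PD-1 replicates 1 to 4 the genes were Trbv23 with Trbj1-4 (73 templates, 0.227%), Trbv2 with Trbj2-2 (163, 0.516%), Trbv24 with Trbj2-2 (41, 0.0565%) and Trbv2 with Trbj2-3 at 57 nucleotides (24, 0.334%). ANT008 replicate 2 had Trbv19 with Trbj2-4 (40, 0.121%) and combination replicate 1 had Trbv31 with Trbj2-5 (58, 0.174%).

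Rows that repeat the CDR3 nucleotides of a larger row of the same mouse, with another V gene name or another base outside the CDR3, numbered 145 of 5047 long (2.87%) and 5987 of 115321 middle-length rows (5.19%), and 138 of the 145 had 1 template. The 21 rows of CDR3 A held 5 distinct CDR3 nucleotide sequences and the 13 rows of CDR3 B held 3. When such rows were merged, the difference in the share with more than 1 template was -8.95 percentage points.

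A smaller part of the long than of the middle-length CDR3s was found in more than 1 mouse. Of 4748 distinct long CDR3 amino acid sequences 90 were found in at least 2 mice (1.90%), against 11006 of 84344 middle-length ones (13.05%). In a mouse, 4.60% ± 1.505 of the long CDR3s were also found in another mouse (SD over 16 mice, lowest 2.13% and highest 7.56%), against 31.0% ± 2.53 of middle-length CDR3s (28.0% to 35.5%), lower in 16 of 16 mice. The classes differ in size and sharing is mutual between mice, so no test was made. The most widely shared middle-length CDR3s were found in all 16 mice and the most widely shared long one in 7. The 241 long rows with a CDR3 shared between mice carried 5.47 inserted nucleotides on average and the 4806 others 7.06. Of the shared rows 93.4% had 51 nucleotides, 86.7% used Trbd2, 35.3% Trbj2-4 and 15.4% Trbv19, against 77.5%, 68.0%, 15.4% and 4.95% of the others.

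The shared long CDR3s were of both kinds shown above. CDR3 D was the same to the nucleotide in 5 mice, with 4 templates in control replicate 1, 16 in ANT008 replicate 1 and 1 in each of anti-PD-1 replicate 3 and combination replicates 2 and 3. CDR3 F had 7 rows in 5 mice, each of 1 template, and CDR3 E had 6 rows in 4 mice, each of 1 template and each with its own nucleotide sequence. Sharing of long CDR3s was not detectably higher within than between treatment groups. The mean Jaccard index, the shared part of the distinct CDR3s of a pair of mice, was 0.00236 over 24 pairs within groups and 0.00216 over 96 pairs between groups (exact permutation test over 63063000 assignments, one-sided p = 0.317). The highest index, 0.0107, was between control replicate 1 and combination replicate 2. With templates as weights (Morisita-Horn index) the difference turned to -0.0360 (exact permutation p = 0.866), with a highest index of 0.901 between control replicate 1 and ANT008 replicate 1, which share form a of CDR3 A.

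The share of long CDR3s in the treated groups was compared with control to ask whether either agent moved this end of the repertoire. In unique productive rearrangements the share was 4.40%, 4.40%, 4.67% and 3.07% in control replicates 1 to 4, 3.63%, 4.06%, 3.24% and 4.07% in ANT008, 3.70%, 3.66%, 3.92% and 3.72% in anti-PD-1, and 4.34%, 3.51%, 3.93% and 4.04% in combination. Control replicate 4 was the lowest of the 16 (95% Wilson interval 2.58 to 3.64) and control replicate 3 the highest (4.28 to 5.10), so the groups overlapped. Intervals cover counting error only. Group means were 4.13% ± 0.722 in control, 3.75% ± 0.397 in ANT008, 3.75% ± 0.118 in anti-PD-1 and 3.96% ± 0.345 in combination (SD, n = 4). The differences from control were -0.383, -0.383 and -0.178 percentage points, each with an SE of 0.319 (exact permutation form of Dunnett's comparison, two-sided p = 0.507, 0.507 and 0.896). Without control replicate 4 the differences for ANT008 and anti-PD-1 were both -0.738 with an exact p of 0.0169, so these comparisons rest on that mouse.

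In templates the share varied more between mice of a group. It was 5.96%, 3.80%, 2.02% and 0.885% in control replicates 1 to 4, 4.21%, 2.15%, 2.04% and 2.15% in ANT008, 2.25%, 2.16%, 1.23% and 2.26% in anti-PD-1, and 2.40%, 7.98%, 7.60% and 2.58% in combination. Combination replicates 2 and 3 were the highest of the 16, and the other pair lay within the range of the control mice. Means were 3.17% ± 2.22, 2.64% ± 1.05, 1.97% ± 0.4995 and 5.14% ± 3.06 in control, ANT008, anti-PD-1 and combination (SD, n = 4). The differences from control were -0.531, -1.19 and 1.97 percentage points (SE 1.40), with exact permutation p of 0.969, 0.746 and 0.394. They depend on single mice. The combination difference was 1.03 without combination replicate 2 and 1.15 without combination replicate 3, and 2.91 without control replicate 1, which also moved that of anti-PD-1 to -0.261 and that of ANT008 to 0.402. Without control replicate 4 those of anti-PD-1 and ANT008 were -1.95 and -1.29. The most frequent long rearrangement alone held 76.4% of the long templates of combination replicate 3 and 42.9% of those of combination replicate 2. Without Trbv2-Trbj2-3 rearrangements the mean share was 1.72% ± 0.562 in control and 2.63% ± 1.23 in combination (difference 0.911), and the ANT008 difference turned to 0.151. The pair was chosen on these values, so these are descriptions.

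Insertions and clone size of long rearrangements did not pass the test in any group either. Long rearrangements carried 6.93 ± 0.183 inserted nucleotides in control, 7.23 ± 0.486 in ANT008, 6.85 ± 0.184 in anti-PD-1 and 7.13 ± 0.243 in combination (SD, n = 4; exact permutation p = 0.398, 0.970 and 0.707 against control). The share with more than 1 template was 18.3% ± 3.33, 23.1% ± 6.32, 16.7% ± 4.32 and 14.3% ± 4.05 (exact permutation p = 0.353, 0.938 and 0.512). Adjusted over all 12 comparisons of the 4 measures, every one of these p-values was 0.970. With 4 mice against 4, the smallest two-sided p over the 70 splits of the mice is 0.0286.

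**Figure D5:**
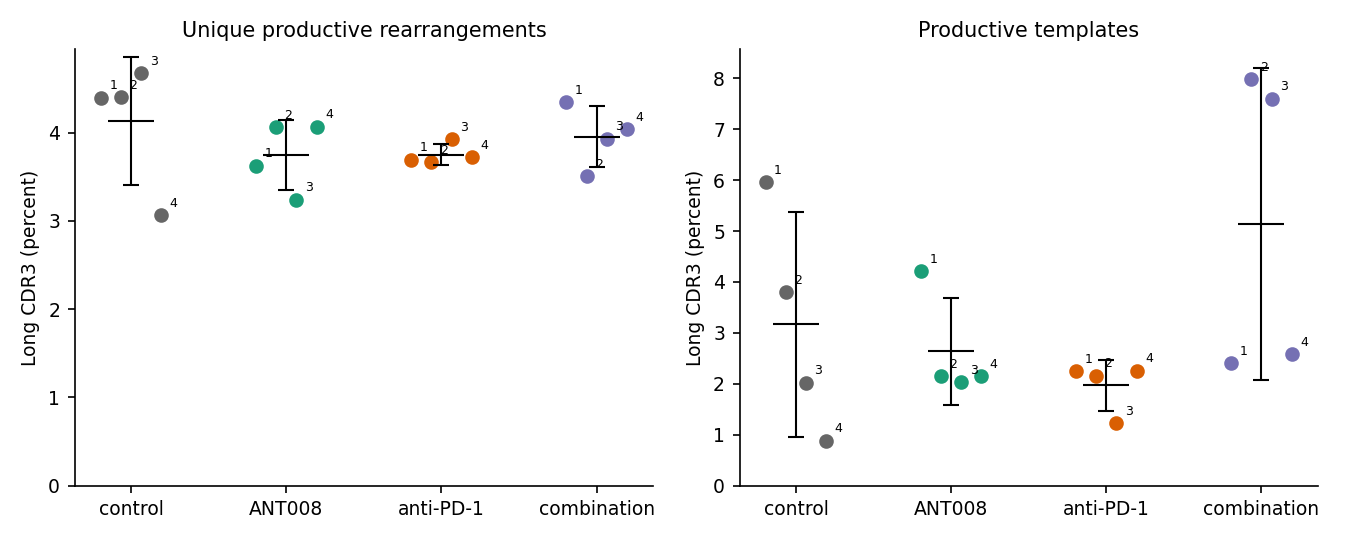
Points show the share of long CDR3s in each mouse by group, in percent of unique productive rearrangements (left) and of productive templates (right), numbered by replicate, with the group mean and SD as a line and bars (n = 4). Groups overlap in both panels, and combination replicates 2 and 3 lie at 7.98% and 7.60% of templates while the other pair of that group lies at 2.40% and 2.58%.

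V genes of long rearrangements, counted in templates, were compared between groups with edgeR, and 0 of 23 V genes passed an adjusted p of 0.05 in ANT008, in anti-PD-1 or in combination against control (0% in each). At an unadjusted p under 0.05 there were 2, 3 and 4, and DESeq2 called 0, 2 and 2.

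The longest CDR3s were rare and small. Those of 60 nucleotides or more numbered 61 in 14 mice, of which 52 had 1 template and none more than 4, and they carried 17.9 inserted nucleotides on average. The 3 longest, shown above, had 1 template each, in ANT008 replicate 2, control replicate 3 and combination replicate 3, and 42, 39 and 37 of their nucleotides were assigned as insertions. In each, the last 15 bases were present a second time within the stretch assigned as insertion. An exact repeat of 15 bases was found in no other long and in 0 of 115321 middle-length rearrangements. Shorter repeats were not counted, and they do occur. In a CDR3 of 72 nucleotides with Trbj1-4, in control replicate 1, all but the first of the last 15 bases recurred within the insertion. A shorter part of the end recurred in a CDR3 of 69 nucleotides with Trbj2-1, in combination replicate 2.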

How the data were processed

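T cells taken from tumors with CD90.2 magnetic beads, per the labels, had their TCRβ genes sequenced with the immunoSEQ assay (Adaptive Biotechnologies). The deposited template counts, estimated by the service, are whole-number counts per 87-nucleotide rearrangement, and the deposited fraction of productive templates was used to find rearrangements above 0.1%. Read columns were empty, so sequencing depth is not known. An aligner and a genome build are not given in the sources used here, and no coordinates are given. All 33 V and 14 J gene names matched symbols of GRCm38.p6.

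Long rearrangements were in-frame entries of 51 nucleotides or more and middle-length ones those of 36 to 48. Groups came from the labels. Treated groups were compared with control by an exact permutation form of Dunnett's comparison, long with middle-length by permutation of signs over mice, and genes by edgeR 4.0.16 with library sizes fixed and genes under 10 counts in all left out, with DESeq2 1.42.0 as an alternative (R 4.3.3, Python 3.11.15). Benjamini-Hochberg adjustment was used. Methods were tested on simulated data. Genes were named if past an adjusted p of 0.05, at most 8 in each direction, and residues at most 5. Also named were the most frequent long rearrangement of each mouse, the 6 CDR3s in most mice (of 3 tied at 4 mice, the 2 with more templates), and the 3 longest. The members and lists were chosen with earlier results of these data known. Replicate numbers in the labels differ from the sample numbers within the deposited data, and p-values measure the spread between mice.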

Additional observations from a re-analysis of the deposited data

Results flagged for a closer look

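The long share of productive templates stood apart from the rest of its group in 2 mice. In ANT008 replicate 1 it was 4.21% while the other 3 mice lay between 2.04% and 2.15%, and in anti-PD-1 replicate 3 it was 1.23% while the others lay between 2.16% and 2.26%. The gap to the nearest mouse was 0.947 and 0.905 of the range of the group. Each group of 4 mice was looked at for 4 measures, 16 sets in all. A rate by chance of about 1 of 20 sets presumes normally spread values, which was not tested.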

How the results depend on the processing

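Alternatives are compared by the difference of treated from control or of long from middle-length. With long set at 48 nucleotides or more, the combination difference was 0.185 percentage points in unique share (exact permutation p = 0.990) and -3.04 in template share (exact permutation p = 0.851), and that in insertions was -0.106 for ANT008, -0.103 for combination and -0.210 for anti-PD-1, the last with an exact permutation p of 0.00947, and that in the share with more than 1 template was 0.767 for anti-PD-1. At 54 nucleotides the template share differed by 0.0343 for ANT008 and 0.259 for anti-PD-1, the multi-template share by 0.302 for anti-PD-1, and the share above 0.1% was lower by a difference of -0.809. At equal depth (7180 templates) the anti-PD-1 differences were 0.00741 in insertions and 0.185 in multi-template share, and without single templates 0.518 in insertions. Leaving out Trbv2-Trbj2-3, chosen after seeing the data, gave 0.151 for the ANT008 template share. Out-of-frame lengths of 52 or more gave -1.09.

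Weighted by templates, 3 V genes and 2 J genes were higher and 2 residues lower, and the direction turned for Trbv1 (-0.23), Trbv16 (-0.34), Trbj2-1 (-0.50) and Trbj2-5 (-0.36) on the log2 scale and for proline (-0.444), threonine (1.24) and valine (0.118) in percentage points. At 54 nucleotides 8 V genes and 3 J genes were lower, valine differed by 0.0169, and the calls of Trbv3, Trbv12-2, Trbv13-1, Trbv17, Trbv21, Trbv30, Trbv31, Trbj1-3, Trbj1-5, arginine, glutamine and aspartate were lost. TMM left 3 J genes higher and Trbj2-5 at -0.29. DESeq2, whose size factors moved V genes by 0.11 (log2, median), called 8 V genes higher and 10 lower. For treatment DESeq2 called 2 V genes for anti-PD-1 (Trbv19 and Trbv23) and 2 for combination (Trbv16 and Trbv19), TMM 3 for combination and no filter 1 for anti-PD-1. The template-weighted overlap differed by -0.0360. Apart from leaving out mice, single genes and residues kept their direction and call in 162 settings, lost the call in 31, turned in 9 and gained a call in 2. For all other comparisons these numbers were 98, 7, 14 and 5. Where such a comparison was a count of genes or residues, a marked drop or rise of the count took the place of a lost or gained call.

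Leaving out each mouse in turn, the differences in unique share ranged from -0.738 to -0.204 for ANT008 and anti-PD-1 and from -0.533 to 0.000960 for combination. Those in template share ranged from -1.29 to 0.402 for ANT008, from -1.95 to -0.261 for anti-PD-1 and from 1.03 to 2.91 for combination, each highest without control replicate 1. The multi-template share ranged from -3.39 to 0.0922 for anti-PD-1, the mean templates from -0.67 to -0.46 (log2), overlap from -9.67e-05 to 0.000411, and treatment calls of V genes from 0 to 1 for anti-PD-1 and combination. The cause of these changes was not tested.

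Mice with the same replicate number did not deviate together over 19 V genes (correlations from -0.534 to 0.479, median -0.0805, and 4 of 16 mice closest to their own number). This gave no sign that the numbers pair the mice, but it cannot exclude a pairing that V genes do not show. With the replicate number as a block the ANT008 difference in the multi-template share kept its 4.87 percentage points (exact permutation p = 0.125). That is the smallest two-sided p that 4 pairs of mice can give, so this permutation could not call any difference and decides nothing. In the edgeR fit with the same block, 0 V genes were called in every treatment comparison. At this depth a rearrangement at 0 templates may take up to 0.0418% of the productive templates of the smallest sample.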
